A study of Mus musculus with 6 samples.

Results

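The dermal fibroblast lineage genes described here were 9 genes taken by symbol as known markers of these cells: Pdgfra, Dpt, Dpp4, Pi16, Twist2, Prrx1, En1, Crabp1 and Dlk1. All 9 were among the 33184 gene IDs of the deposited table, and all 9 were among the 16005 genes that averaged 0.5 FPKM or more and were tested. FPKM stands for fragments per length of gene and per depth of the library, so levels can be compared between genes. Here the mates of a fragment were counted singly, so the read numbers given below stand for fewer fragments. The samples were skin wounds of db/db mice (genotype label dbdb), a diabetic line with a defective leptin receptor, and comprised 3 NC and 3 SFRP2-siRNA libraries. All mice received a round wound of 6 mm through epidermis and dermis. At dpi1 (1 day post-injury) a control siRNA (NC) or siRNA against SFRP2 was injected around the wound, and tissue was taken at dpi4. The sample titles carry day 3, and the age of the mice is not given in the sources used here. The treated samples are numbered siRNA-1 to siRNA-3, as are 3 different siRNA sequences in the study's supplement, so a difference between sequences cannot be told apart from one between samples. Nothing states that each library is a separate mouse, so p-values measure the spread between these samples.

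Fibroblasts of the dermis make the collagen-rich matrix of skin, and they come from several lineages. Cells of the upper, papillary dermis support hair follicles. Cells of the lower, reticular dermis make most of the dense matrix, and cells of the fascia beneath it enter deep wounds. The 9 genes mark different positions in this system. Pdgfra, a receptor for platelet-derived growth factor, and Dpt, the matrix protein dermatopontin, are found broadly in fibroblasts. Dpp4, a surface peptidase also known as CD26, and Pi16, a secreted CAP-domain protein, mark fascia and adventitial fibroblasts. Twist2, Prrx1 and En1 encode transcription factors of mesenchyme, and En1 marks the embryonic lineage of back skin that forms scars. Crabp1, a retinoic acid binding protein, marks papillary and dermal papilla cells, and Dlk1, a Notch-related ligand also called Pref-1, marks reticular cells and preadipocytes.

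All 9 genes, against 71.8% of all genes tested, had a positive log2 fold change and a higher mean level in the SFRP2-siRNA-labelled libraries than in NC. For 5 of them (Pi16, Dpt, Prrx1, En1 and Dlk1) every library labelled SFRP2-siRNA lay above every NC library, against 13.9% of all genes. With median-of-ratios or quantile scaling, or without mitochondrially encoded protein genes, this held for 3 of them (Pi16, En1 and Dlk1). In that order it held for 5.54%, 6.12% and 4.64% of all genes. Pi16, En1 and Dlk1 had the widest folds of mean FPKM, 1.89, 1.96 and 2.29. Sfrp2, the siRNA target, was higher in the same libraries, with a fold of 2.42. No single gene passed adjustment over all genes tested. The median log2 fold change was 0.62 over the 9 genes, 0.74 over 12 general fibroblast genes and 0.13 over all genes. Markers of other cells had medians as high, with 0.69 for macrophages, 0.81 for neutrophils and 0.62 for skeletal muscle.

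The proximal promoters of the 5 genes whose groups did not overlap are printed here, to show the sequences behind the genes that separated the libraries as deposited. Each window runs from 250 bases before to 50 bases after the RefSeq start on GRCm38.p6, 5′ to 3′ on the strand of the gene. Capitals mark matches to CANNTG, the core of the E-box that bHLH factors such as Twist proteins bind, and to TAATTA, a palindrome bound by homeodomain factors such as those of Prrx1 and En1.
Pi16 promoter, chr17:29318632-29318931, plus strand: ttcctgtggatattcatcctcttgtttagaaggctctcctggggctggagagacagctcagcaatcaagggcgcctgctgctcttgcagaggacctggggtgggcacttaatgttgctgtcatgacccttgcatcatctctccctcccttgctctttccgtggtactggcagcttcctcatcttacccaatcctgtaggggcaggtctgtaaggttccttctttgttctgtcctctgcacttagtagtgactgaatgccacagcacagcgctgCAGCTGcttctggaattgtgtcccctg
Dpt promoter, chr1:164796413-164796712, plus strand: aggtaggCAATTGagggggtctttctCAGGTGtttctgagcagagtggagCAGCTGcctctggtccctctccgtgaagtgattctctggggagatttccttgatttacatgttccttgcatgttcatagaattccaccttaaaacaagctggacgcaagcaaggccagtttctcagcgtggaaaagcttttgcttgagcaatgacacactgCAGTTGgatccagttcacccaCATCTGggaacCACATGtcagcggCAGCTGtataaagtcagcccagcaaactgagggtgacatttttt
Prrx1 promoter, chr1:163313601-163313900, minus strand: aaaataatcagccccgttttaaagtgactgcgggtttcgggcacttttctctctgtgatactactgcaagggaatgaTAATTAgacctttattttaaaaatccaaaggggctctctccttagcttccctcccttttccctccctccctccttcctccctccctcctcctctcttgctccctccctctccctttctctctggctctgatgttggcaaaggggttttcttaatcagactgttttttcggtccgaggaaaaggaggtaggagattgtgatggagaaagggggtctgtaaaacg
En1 promoter, chr1:120602237-120602536, plus strand: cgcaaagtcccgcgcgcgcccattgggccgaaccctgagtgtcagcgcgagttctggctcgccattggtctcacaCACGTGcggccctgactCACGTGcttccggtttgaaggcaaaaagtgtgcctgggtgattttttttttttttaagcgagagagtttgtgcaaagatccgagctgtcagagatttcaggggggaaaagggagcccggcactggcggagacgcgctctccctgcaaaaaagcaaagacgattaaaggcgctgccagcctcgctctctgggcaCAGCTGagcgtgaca
Dlk1 promoter, chr12:109452573-109452872, plus strand: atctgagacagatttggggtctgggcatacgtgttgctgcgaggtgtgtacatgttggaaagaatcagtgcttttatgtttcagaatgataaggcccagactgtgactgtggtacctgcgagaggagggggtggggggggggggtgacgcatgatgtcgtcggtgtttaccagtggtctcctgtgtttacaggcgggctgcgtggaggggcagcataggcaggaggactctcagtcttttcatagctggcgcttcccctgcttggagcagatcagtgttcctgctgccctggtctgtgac

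Both strands were searched, and each of these 2 motifs reads the same on both. CANNTG occurred in 5 of the 9 member promoters, against 72.3% of all 32851 promoter windows of the same length. Dpt held 7 matches, En1 held 3, Pdgfra 2, and Pi16 and Dpp4 had 1 each. TAATTA occurred in 1 of 9, that of Prrx1, against 5.29% of all promoters. Dpt, Prrx1, En1 and Twist2 all lie on chromosome 1. TATAAA, the letters of a TATA box, was in 2 of 9 (Dpt and Dpp4) against 13.6% of all promoters. Counted from the start, this match lay at 13 in Dpt and at -227 in Dpp4. GGGCGG, the GC box, was in 2 of 9 (Crabp1 and Twist2) against 35.7%. The windows of Dlk1, Twist2 and Crabp1 held neither of the motifs marked by capitals. AGGTCA, the half-site of nuclear receptors including those for retinoic acid, was in none of the 9 and in 16.3% of all promoters. These matches describe letters and not binding.

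The libraries were comparable in depth, with 42.9 M to 47.1 M reads behind each as the FPKM steps imply. The labelled skin tissue was checked with marker genes, which cannot tell wounded from intact skin. Col1a1 ran from 254 to 755 FPKM, Krt14 of basal keratinocytes from 1571 to 3930, and Acta1 of skeletal muscle from 1988 to 6532. Sfrp2, the siRNA target, had 11.6, 40.6 and 14.1 FPKM in NC and 50.6, 54.6 and 55.2 FPKM in the SFRP2-siRNA-labelled libraries. It was thus not lower but higher in the treated group, without overlap and with a fold of means of 2.42. The log2 fold change was 1.45 (SE 0.43), with an unadjusted limma p of 0.0125 and an adjusted limma p of 0.518. Directions are stated only for the libraries as labelled. Transcripts of the 13 mitochondrially encoded protein genes made up 34.5%, 21.4% and 16.8% of all FPKM in NC 1, 2 and 3 and 11.5% to 15.9% in the other group. The library SFRP2-siRNA 1 stood apart in hair follicle genes, whose 9 measured markers summed to 24.6 FPKM there and to 2378 to 4906 FPKM in the other 5 libraries (median log2 fold change -2.03, 0 of 9 positive). In bulk tissue, fewer cells of a type and less RNA per cell cannot be told apart.

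**Figure D1:**
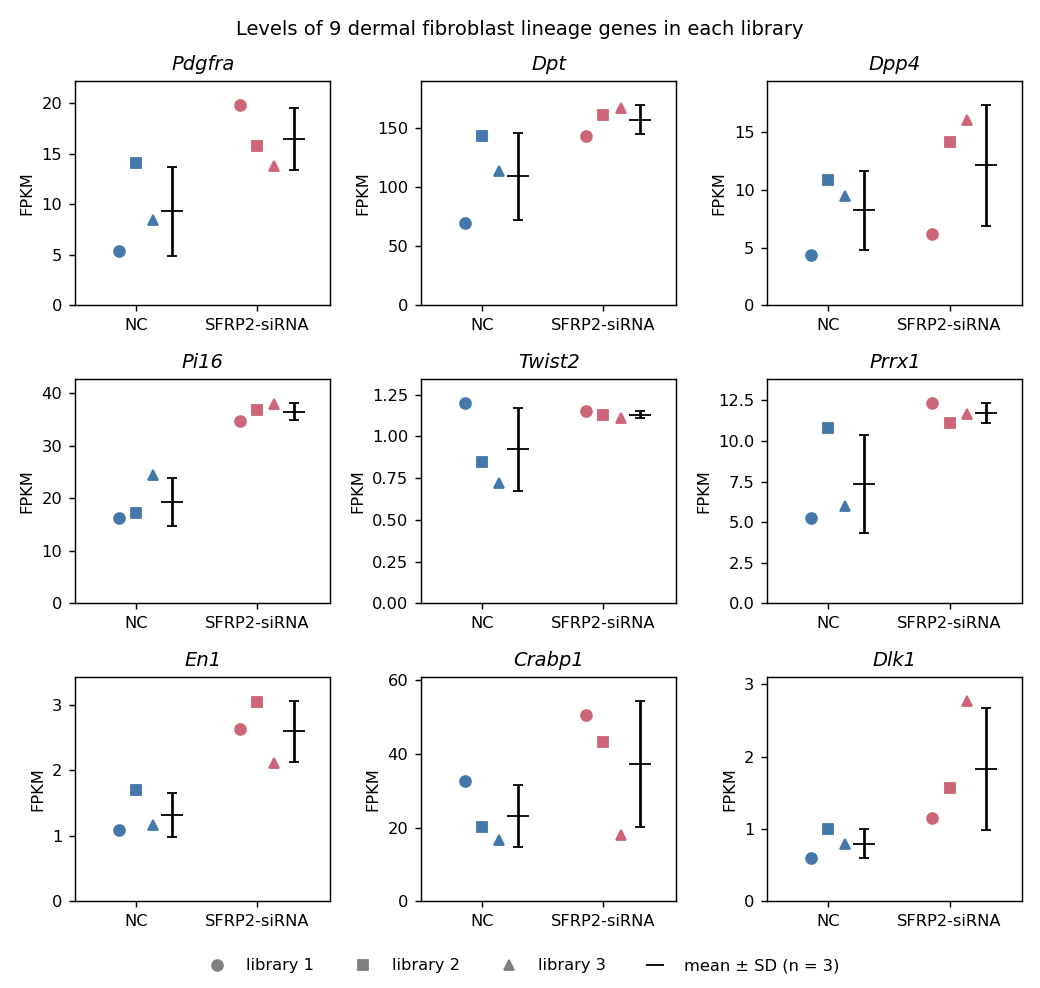
Level of each of the 9 genes in FPKM (vertical axes, from 0) in the 3 NC libraries (blue) and the 3 SFRP2-siRNA-labelled libraries (red), with symbols for library 1, 2 and 3 and black bars for mean ± SD. The red points lie above all blue points for Dpt, Pi16, Prrx1, En1 and Dlk1, while the groups overlap for Pdgfra, Dpp4, Twist2 and Crabp1.

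The broad fibroblast genes were compared first. Pdgfra (ENSMUSG00000029231), the receptor through which PDGF drives fibroblast growth, had 5.38, 14.1 and 8.50 FPKM in NC 1, 2 and 3, and 19.8, 15.8 and 13.8 FPKM in the SFRP2-siRNA-labelled libraries 1, 2 and 3. The groups overlapped, since NC 2 lay just above SFRP2-siRNA 3. NC and SFRP2-siRNA averaged 9.33 ± 4.42 and 16.5 ± 3.06 FPKM (SD, n = 3 each). The log2 fold change on the log2(FPKM + 1) scale was 0.83 (SE 0.32), with an unadjusted limma p of 0.0346 and an adjusted limma p of 0.518. The exact permutation p was 0.2, and 3 against 3 libraries cannot go below 0.1. The Pdgfra values rested on 2381 to 8536 reads per library.

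Dpt (ENSMUSG00000026574), which binds decorin and helps assemble collagen fibrils, was the most abundant of the 9 genes. It had 70.0, 143.6 and 114 FPKM in NC and 143.9, 161 and 167 FPKM in the SFRP2-siRNA-labelled libraries. The groups did not overlap, but only by the narrow step between NC 2 and SFRP2-siRNA 1. Group means were 109 ± 37.1 and 158 ± 12.2 FPKM (SD, n = 3 each). For Dpt the log2 fold change was 0.58 (SE 0.28), the unadjusted limma p was 0.0763 and the exact permutation p was 0.1. Without NC 1 the Dpt value was 0.29 and the Pdgfra value 0.53. For both broad genes NC 1 was lowest and NC 2 was highest in its group.

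Of the pair of fascia and adventitial genes, Pi16 separated the groups and Dpp4 did not. Pi16 (ENSMUSG00000024011) had 16.2, 17.2 and 24.5 FPKM in NC and 34.8, 36.7 and 38.0 FPKM in the SFRP2-siRNA-labelled libraries. The treated libraries were close to each other and well clear of NC. They averaged 19.3 ± 4.51 and 36.5 ± 1.62 FPKM (SD, n = 3 each). Its log2 fold change of 0.91 (SE 0.18) was the largest of the 9 on this scale, and its unadjusted limma p of 0.00166 was the smallest. The adjusted limma p was still 0.518. The value rested on 4536 to 11391 reads per library.

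Dpp4 (ENSMUSG00000035000), which cleaves dipeptides from chemokines and incretins, had 4.38, 10.9 and 9.44 FPKM in NC and 6.19, 14.1 and 16.0 FPKM in the SFRP2-siRNA-labelled libraries. SFRP2-siRNA 1 lay below both NC 2 and NC 3, so the groups overlapped. Its log2 fold change was 0.49 (SE 0.42) and the exact permutation p was 0.5. Without SFRP2-siRNA 1 it was 0.88, and without NC 1 it was 0.14. SFRP2-siRNA 1 is the library with almost no follicle keratin RNA, and the part of this in the Dpp4 value was not tested. Dpp4 is also made by T cells. The T cell genes Cd3g, Cd4 and Trac were at 0.416 to 2.42 FPKM, and the 6 T cell markers summed to 4.33 to 6.55 FPKM in NC and 4.58 to 6.49 FPKM in the other group. The part of T cells in the Dpp4 value was not tested.

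Among the 3 transcription factor genes, Prrx1 and En1 separated the groups and Twist2 did not. Prrx1 (ENSMUSG00000026586), a homeobox gene of limb and skin mesenchyme, had 5.26, 10.8 and 5.99 FPKM in NC and 12.3, 11.1 and 11.6 FPKM in the SFRP2-siRNA-labelled libraries. The treated libraries lay in a narrow band just above NC 2. NC and SFRP2-siRNA averaged 7.35 ± 3.02 and 11.7 ± 0.615 FPKM (SD, n = 3 each). Prrx1 had a log2 fold change of 0.66 (SE 0.24), with an unadjusted limma p of 0.0311.

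En1 (ENSMUSG00000058665), the homeobox gene that marks scar-forming cells of the back, had 1.10, 1.71 and 1.16 FPKM in NC and 2.64, 3.04 and 2.11 FPKM in the SFRP2-siRNA-labelled libraries. The lowest treated library was above the highest NC library. Group means were 1.32 ± 0.335 and 2.59 ± 0.464 FPKM (SD, n = 3 each), on 127 to 361 reads per library. The log2 fold change was 0.63 (SE 0.16), and the unadjusted limma p of 0.00555 was the second smallest of the 9. A pseudocount of 1 understates the change of a gene at this level. On the reads recovered from the FPKM steps, limma voom gave a log2 fold change of 0.98 for En1.

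Twist2 (ENSMUSG00000007805), a bHLH gene also called Dermo1, was the lowest of the 9 by both group means together. In NC alone Dlk1 was lower, with a mean of 0.799 FPKM against 0.923 for Twist2. Twist2 had 1.20, 0.847 and 0.722 FPKM in NC and 1.15, 1.13 and 1.11 FPKM in the SFRP2-siRNA-labelled libraries. NC 1 was the highest of all 6 libraries, and the treated libraries were nearly equal. Its log2 fold change was 0.15 (SE 0.13), close to the median of all genes, 0.13. With voom on recovered reads it was 0.33 against a median of 0.17, and with a pseudocount of 0.1 it was 0.29 against 0.16. The values rested on 105 to 168 reads per library and the exact permutation p was 0.4.

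The position markers Crabp1 and Dlk1 showed different libraries on top. Crabp1 (ENSMUSG00000032291), the second most abundant of the 9, had 32.6, 20.1 and 16.7 FPKM in NC and 50.7, 43.3 and 18.1 FPKM in the SFRP2-siRNA-labelled libraries. SFRP2-siRNA 3 lay among the NC libraries, and the highest value was in SFRP2-siRNA 1, the library with almost no follicle keratin RNA. They averaged 23.2 ± 8.38 and 37.4 ± 17.1 FPKM (SD, n = 3 each), and the exact permutation p was 0.3. Its log2 fold change was 0.60 (SE 0.42), and it was 1.04 without SFRP2-siRNA 3, 0.32 without SFRP2-siRNA 1 and 0.40 without NC 3.

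Dlk1 (ENSMUSG00000040856), which holds preadipocytes from maturing, had 0.601, 1.00 and 0.795 FPKM in NC and 1.15, 1.56 and 2.77 FPKM in the SFRP2-siRNA-labelled libraries. The groups did not overlap, and SFRP2-siRNA 3 alone was well above the rest. The log2 fold change was 0.62 (SE 0.22) with an unadjusted limma p of 0.0272, on 150 to 738 reads per library. It was 0.39 without SFRP2-siRNA 3 and 1.13 with voom on recovered reads. SFRP2-siRNA 3 was also the library with the most muscle RNA: the 9 skeletal muscle markers summed to 12282 FPKM there and to 3303 to 6483 FPKM elsewhere. Dlk1 is also known from regenerating muscle, and the part of muscle RNA in its value was not tested.

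Across all genes, no gene passed the adjusted threshold with limma (adjusted p under 0.05 and an absolute log2 fold change above 1), which is 0% of 16005, and voom also called 0. Without adjustment, limma gave 1533 genes (9.58%) with p under 0.05 and voom gave 1521. Of the 9 members, 5 had an unadjusted limma p under 0.05 with a higher level in the SFRP2-siRNA-labelled libraries (Pdgfra, Pi16, Prrx1, En1 and Dlk1), against 6.72% of all genes. The groups did not overlap with the treated libraries higher for 5 members, against 13.9% of all genes (17.8% in either direction). A positive log2 fold change was found for 9 of 9 members, against 71.8% of all genes. The median log2 fold change was 0.62 over the members and 0.13 over all genes. Relative to that median the member values ran from 0.03 for Twist2 to 0.78 for Pi16.

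The background moved with the scaling, and the share of RNA from mitochondrially encoded protein genes differed between the groups. With median-of-ratios scaling, which sets the typical gene equal between libraries, the median of all genes was 0.0046 and 51% of genes had a positive value. The groups then did not overlap, with the treated higher, for Pi16, En1 and Dlk1, 3 of 9 against 5.54% of all genes. After rescaling without the 13 mitochondrially encoded protein genes, these 3 members again separated, against 4.64% of all genes, with 59.8% of genes positive. They also separated with quantile normalization, against 6.12% of all genes (55.2% positive). Rescaled to equal sums, 5 members separated (Dpt, Pi16, Twist2, En1 and Dlk1), against 14.6% of all genes (79.2% positive). Pdgfra, Dpt and Prrx1 had log2 fold changes of 0.69, 0.42 and 0.52 with median-of-ratios scaling, with overlapping groups. All 9 members had a positive value under each of these 4 scalings. The count of members at an unadjusted limma p under 0.05 was 2 (Pi16 and En1) without NC 1 and likewise without NC 3. Of all 16005 genes, 460 and 919 were then higher at that p, against 1075 with all 6 libraries.

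**Figure D2:**
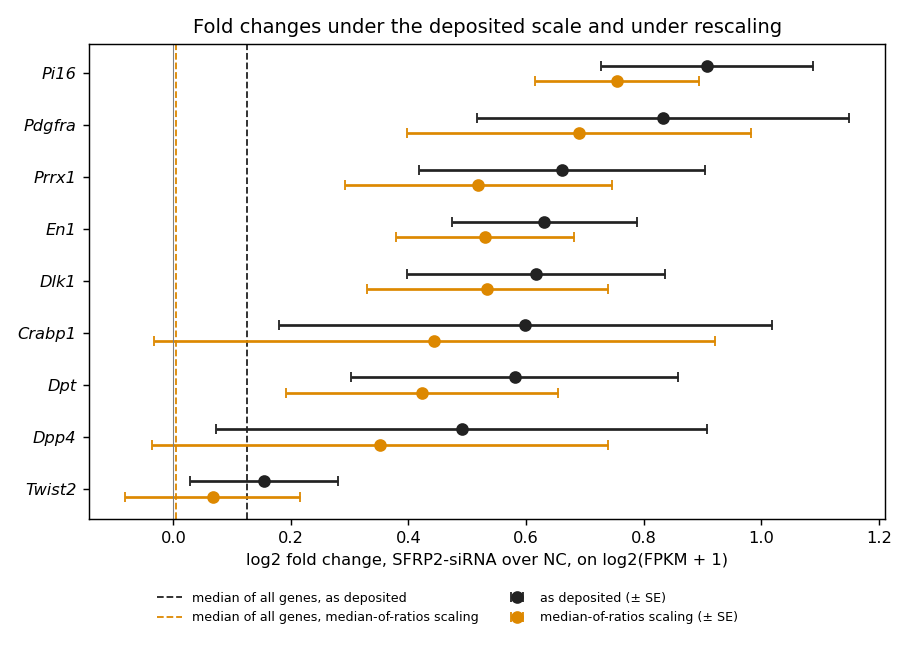
Log2 fold change (horizontal axis) of each gene in the SFRP2-siRNA-labelled libraries over NC, with SE bars, as deposited (black) and after median-of-ratios scaling (orange), and dashed lines at the median of all genes. All 9 values are positive on both scales, from 0.15 for Twist2 to 0.91 for Pi16 as deposited.

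The libraries can hold different amounts of fibroblast RNA, so each member was also set against 12 general fibroblast genes (Col1a1, Col1a2, Col3a1, Col5a1, Col6a1, Dcn, Lum, Fbn1, Mmp2, Serpinf1, Pcolce and Fstl1). The mean log2(FPKM + 1) of these reference genes was 6.08, 7.04 and 6.36 in NC 1, 2 and 3 and 7.25, 7.26 and 7.18 in the SFRP2-siRNA-labelled libraries. The groups did not overlap, with a difference of 0.74 and an exact permutation p of 0.1. Of the 12 genes, 8 had an unadjusted limma p under 0.05, against 6.72% of all genes higher at that p. The groups separated for 9, against 13.9% of all genes with the treated higher. Dcn, which encodes decorin, had 89.0 ± 14.7 FPKM in NC and 149 ± 9.07 FPKM in the SFRP2-siRNA-labelled libraries (SD, n = 3 each).

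Set against this reference, none of the 9 members separated the groups. The log2 level minus the reference was higher by 0.17 for Pi16 and by 0.10 for Pdgfra in the SFRP2-siRNA-labelled libraries. The difference was -0.08 for Prrx1, -0.11 for En1, -0.12 for Dlk1, -0.14 for Crabp1, -0.16 for Dpt, -0.25 for Dpp4 and -0.58 for Twist2. The Twist2 value was -0.28 without NC 1 and -0.88 without NC 2, and the Dpt value was -0.03 without NC 3. Exact permutation p-values over these 9 comparisons ran from 0.3 to 0.9, and all were 0.9 after Benjamini-Hochberg adjustment. Prrx1 followed the reference most closely, with values from -3.66 to -3.43 in all 6 libraries. Crabp1 followed it least in NC, from -2.64 to -1.01. For the low genes these differences depend on the pseudocount, and with 0.1 En1 was 0.19 and Dlk1 was 0.29, with exact permutation p-values of 0.4 and 0.7. A p above the threshold does not show that the proportions were equal.

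**Figure D3:**
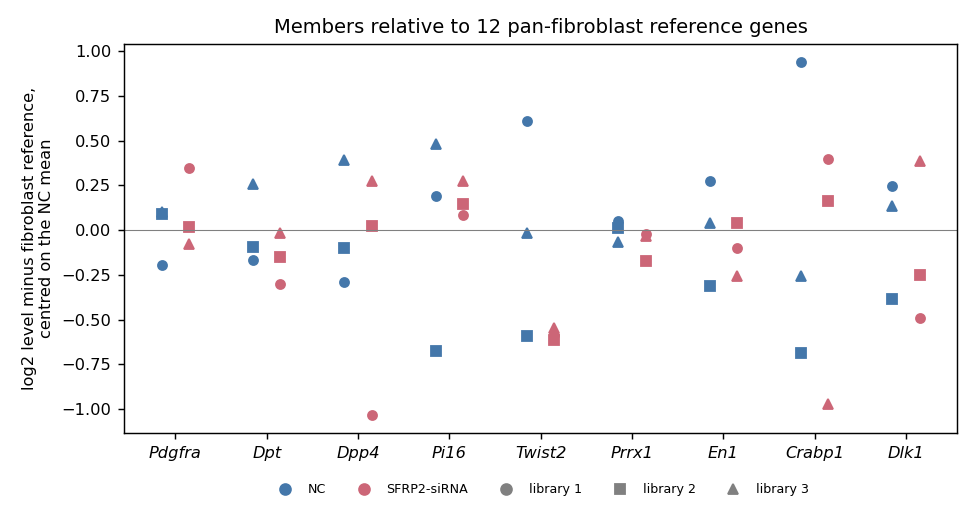
Log2(FPKM + 1) of each gene minus the mean of 12 general fibroblast genes, centred on the NC mean of that gene (vertical axis, log2 units), in NC (blue) and in the SFRP2-siRNA-labelled libraries (red). Red and blue points overlap for all 9 genes, and Dpp4 in SFRP2-siRNA 1 and Crabp1 in SFRP2-siRNA 3 lie lowest.

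The 9 genes differed in which libraries were high, and no grouping of them was tested. NC 1 was the lowest of all 6 libraries for 7 members, the exceptions being Twist2 and Crabp1, for which NC 3 was lowest. SFRP2-siRNA 1 was the highest library for Pdgfra, Prrx1 and Crabp1, and the lowest of its group for Dpt, Dpp4, Pi16 and Dlk1. Pearson's r over the 6 libraries was 0.96 for Pdgfra with Prrx1, 0.88 for Prrx1 with En1 and 0.90 for Pdgfra with Dpt. Dpp4 had an r of 0.82 with Dpt and 0.78 with Dlk1, and -0.40 with Crabp1. Twist2 and Crabp1 had an r of 0.70 with each other, and -0.08 and -0.02 with Dpt. Other pairs cut across these, with 0.58 for En1 with Crabp1, 0.79 for Pi16 with En1 and 0.70 for Prrx1 with Dlk1. These values describe 6 libraries that share 2 groups and a common depth scale. Among the genes outside the 9 whose log2 levels were most like the mean standardized profile of the members were Tspyl4, Stard3, Alg6 and Zfp90, with r from 0.990 to 0.998 over 6 libraries among 15872 genes searched. Sfrp2 had an r of 0.95 with that profile and was number 94 in that order.

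**Figure D4:**
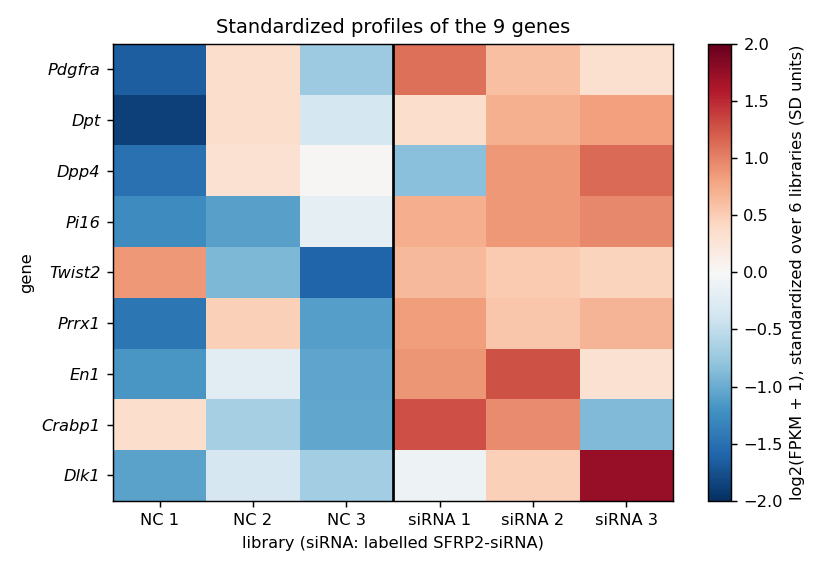
Standardized log2(FPKM + 1) of each gene (rows) in each library (columns), in SD units over the 6 libraries, blue for low and red for high. NC 1 is the lowest library in 7 rows, and Twist2 and Crabp1 differ from the other rows in being above their mean in NC 1.

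Other genes of each lineage were described from gene lists. Of 13 fascia and adventitial genes, 13 had a positive log2 fold change, against 71.8% of all genes, with a median of 0.58. Of these, 3 had an unadjusted limma p under 0.05, against 6.72% of all genes higher at that p. The groups separated for 1 of 13, against 13.9% of all genes. Emilin2, an elastin-associated glycoprotein, had 15.3 ± 6.53 FPKM in NC and 28.5 ± 2.46 in the SFRP2-siRNA-labelled libraries (SD, n = 3 each). Ly6a, which encodes the stem cell antigen Sca-1, had 113 ± 39.9 and 197 ± 48.4 FPKM. Cd55, a complement regulator, had 7.155 ± 1.75 and 12.1 ± 3.35 FPKM, with overlapping groups.

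Papillary genes were near the median of all genes. Their median log2 fold change was 0.09 over 8 genes, with 6 positive, against 71.8% of all genes. Of the 8, 1 had an unadjusted limma p under 0.05, against 6.72% of all genes higher at that p. The groups separated for 0, against 13.9% of all genes with the treated higher. Pdpn, the surface glycoprotein podoplanin, had 19.8 ± 9.09 and 34.4 ± 8.18 FPKM, and Ntn1 and Itga8 had log2 fold changes of 0.18 and 0.12. Dermal papilla genes had a median of 0.08 over 9 tested genes. Fgf7, a growth factor for keratinocytes, had 2.21, 4.59 and 3.28 FPKM in NC and 8.86, 6.54 and 5.365 in the SFRP2-siRNA-labelled libraries, without overlap. Corin, a dermal papilla protease, had 0.0690 FPKM in SFRP2-siRNA 1 and 1.03 to 2.82 FPKM in the other 5 libraries, and Alpl was at 2.60 ± 0.516 in NC and 1.63 ± 0.423 in the treated group. Crabp1 and Fgf7 were both highest in SFRP2-siRNA 1, where Corin was near 0. The 12 listed dermal papilla genes summed to 37.5 FPKM there, to 41.6 and 52.0 in the others of that group and to 30.6 to 44.4 in NC.

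Preadipocyte genes, set beside Dlk1, had a median of 0.04 over 9 genes. Ccn5, a matricellular protein, had 39.2 FPKM in SFRP2-siRNA 1 and 14.0 and 15.8 FPKM in the others of that group, against 6.79 to 11.8 in NC. Klf2 had a log2 fold change of 0.41 and Sox9 one of -0.82. Adipocyte markers had a median of -0.24, and 8 of 9 were lower, with Plin1, which coats lipid droplets, at 89.8 ± 22.0 and 52.2 ± 26.2 FPKM. Pparg and Fabp4 had log2 fold changes of -0.83 and -0.65, and 0 of the 9 adipocyte genes had an unadjusted limma p under 0.05. At the Dlk1 imprinted locus, the noncoding RNA Meg3 had 6.56, 12.1 and 6.27 FPKM in NC and 10.4, 12.3 and 16.4 FPKM in the SFRP2-siRNA-labelled libraries, with SFRP2-siRNA 3 highest as for Dlk1. The receptor gene Notch2 had a log2 fold change of 0.40 and separated the groups, and Dlk2 had 0.19. In this list 4 of 6 tested genes were positive and 0 had an unadjusted limma p under 0.05.

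Among 12 tested mesenchymal transcription factors, 10 had a positive log2 fold change, against 71.8% of all genes, with a median of 0.47. Of the 12, 5 had an unadjusted limma p under 0.05, against 6.72% of all genes higher at that p. The groups separated for 7, against 13.9% of all genes with the treated higher. Prrx2, the paralog of Prrx1, had 2.09 ± 0.494 FPKM in NC and 3.86 ± 0.327 in the SFRP2-siRNA-labelled libraries (SD, n = 3 each). Osr2 had 1.29 ± 0.0187 and 2.30 ± 0.582 FPKM, and Hic1, which marks quiescent mesenchymal progenitors, had 4.74 ± 0.994 and 6.88 ± 0.851 FPKM. Twist1, the paralog of Twist2, chosen here after its values were seen, had 5.86, 6.37 and 5.68 FPKM in NC and 13.5, 7.38 and 8.19 FPKM in the treated group. It was thus more abundant than Twist2 in every library, and its groups did not overlap. En2, the paralog of En1, also chosen after its values were seen, had at most 6 reads in a library.

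The wound-activated fibroblast list had a median of 0.37 over 12 tested genes, with 11 positive, against 71.8% of all genes. Of the 12, 3 had an unadjusted limma p under 0.05, against 6.72% of all genes higher at that p. The groups separated for 3, against 13.9% of all genes with the treated higher. Cthrc1, a collagen triple helix protein of repair fibroblasts, had 25.0, 55.1 and 21.3 FPKM in NC and 68.5, 78.7 and 73.1 FPKM in the SFRP2-siRNA-labelled libraries. Thy1 and Postn had log2 fold changes of 0.49 and 0.65. In the PDGF pathway, whose receptor Pdgfra is a member, 3 of 6 genes had a positive log2 fold change and 3 a negative one, with a median of 0.16, and 2 had an unadjusted limma p under 0.05. Pdgfrl had 3.99 ± 0.288 and 6.21 ± 0.666 FPKM and the ligand gene Pdgfc had 2.28 ± 0.846 and 3.655 ± 0.335 FPKM. Pdgfrb, another receptor gene of this pathway, had a log2 fold change of 0.39 with overlapping groups. The ligand gene Pdgfa, named after its values were seen, had one of -0.18.

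For retinoid handling, in which Crabp1 acts, the median was -0.05 over 13 tested genes, and 1 had an unadjusted limma p under 0.05. Rara, a retinoic acid receptor, had 7.16 ± 0.424 and 9.34 ± 0.527 FPKM. Cyp26b1, which degrades retinoic acid, and Aldh1a1, which makes it, had log2 fold changes of 0.67 and 0.60 with overlapping groups. Crabp2, the paralog of Crabp1, chosen after its values were seen, had a log2 fold change of -0.76, with 56.0 ± 26.9 FPKM in NC and 33.4 ± 20.8 in the treated group. The peptidase relatives of Dpp4 that were tested, Dpp7, Dpp8 and Dpp9, had log2 fold changes of 0.31, 0.21 and 0.18, and only Dpp7 separated the groups. Of the CAP-domain relatives of Pi16, 3 of 5 had an unadjusted limma p under 0.05, against 6.72% of all genes higher at that p. These were Glipr2, Glipr1 and Crispld2, with log2 fold changes of 0.85, 0.71 and 0.58. Of the 5, only Glipr2 separated the groups, against 13.9% of all genes with the treated higher.

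**Figure D5:**
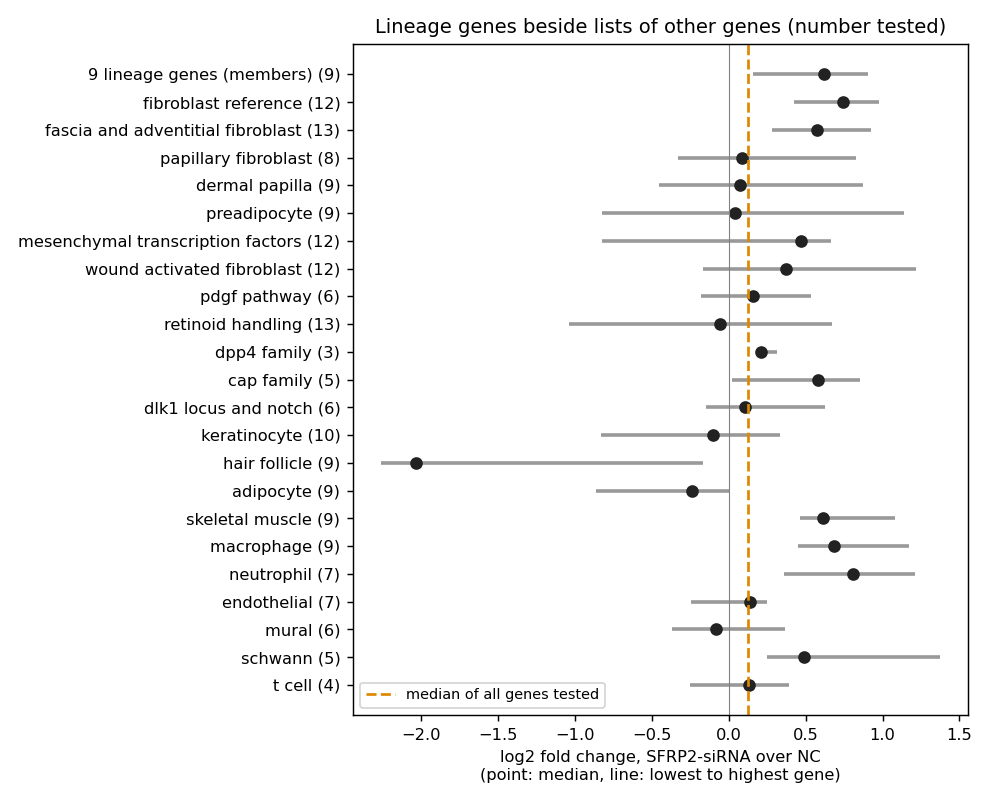
Log2 fold change of each gene list (horizontal axis; points are medians, grey lines run from the lowest to the highest gene, the number tested is in brackets) with a dashed line at the median of all genes tested. The 9 lineage genes (median 0.62) lie beside the fibroblast reference (0.74) and the fascia list (0.58), and also beside the skeletal muscle (0.62), macrophage (0.69) and neutrophil (0.81) lists, while the papillary, dermal papilla and preadipocyte lists lie near 0.

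Markers of other cells also differed between the libraries. All 9 macrophage markers had positive values, against 71.8% of all genes, with a median log2 fold change of 0.69. Of these 9, 7 had an unadjusted limma p under 0.05, against 6.72% of all genes higher at that p. Only 3 of the 9 separated the groups, against 13.9% of all genes with the treated higher. The macrophage markers summed to 455 to 742 FPKM in NC and 782 to 1003 FPKM in the SFRP2-siRNA-labelled libraries. Itgam, which encodes CD11b, and C1qb had log2 fold changes of 0.96 and 0.59, and Csf1r had 0.69. All 9 skeletal muscle markers had positive log2 fold changes with a median of 0.62, with overlapping sums. Neutrophil markers had a median of 0.81 and summed to 988 to 5533 FPKM in the treated group against 1143 to 1765 in NC. Keratinocyte and endothelial markers had medians of -0.10 and 0.14, with sums of 3624 to 6907 and 59.9 to 101 FPKM in the treated group against 3814 to 6602 and 59.3 to 88.1 in NC. Mural and T cell markers had medians of -0.08 and 0.13. The part of these markers in the member values was not tested.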

How the data were processed

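RNA-seq was performed on wound tissues of 6 db/db samples, 3 NC and 3 SFRP2-siRNA, grouped by their titles. The authors deposited FPKM values for 33184 Ensembl gene IDs. The submitters' processing notes name HISAT2, featureCounts and Subread, and build and annotation are not given in the sources used here. Symbols came from a gene name table that matched 32582 IDs. FPKM times GENCODE vM21 length gave whole reads (tolerance 0.02) in 98.5% of testable genes, all 9 members included, with 64.6% of counts of 1 to 20 even, so mates were counted singly. No 2 libraries of a group agreed within sampling noise.

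FPKM values are not counts, so the recovered reads were tested only as an alternative, and values were analysed as log2(FPKM + 1) for the 16005 genes that averaged 0.5 FPKM or more. R 4.3.3 and limma 3.58.1 (lmFit, then eBayes with a trend on intensity) gave two-sided p-values, adjusted over all tested genes by Benjamini-Hochberg. Single values were compared by two-sided exact permutation tests (SciPy 1.17.1). Limma, voom and the recovery of reads were tested on simulated data. Members, lists and tests were chosen with earlier results of these data known. Named genes were the members, Sfrp2 and the 3 genes of lowest p from each of 22 lists. To these came the 5 genes most like the member profile and those said to be chosen after their values were seen. Outside this rule, Col1a1, Krt14 and Acta1 were named as tissue checks. Some genes that this rule names are not reported here. Alternatives were another pseudocount, other filters and scalings, no trend, sample weights, a block for the replicate number, voom on recovered reads and leaving out each library. For the values relative to the fibroblast reference, Pdgfra alone was also used as the reference. Rescaling without mitochondrially encoded protein genes and voom with median-of-ratios library sizes were added after the data were seen. Promoters were taken from RefSeq (GRCm38.p6), which matched 9 members.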

Additional observations from a re-analysis of the deposited data

How the results depend on the processing

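All 159 refits of single members under 18 alternatives kept a positive log2 fold change. Of all genes, 50.8% (voom with median-of-ratios library sizes) to 79.2% (rescaled to equal sums) were positive under these alternatives. The refits reuse the same 6 libraries and are not independent. All 159 stayed short of the adjusted threshold, and no alternative brought any gene past it (0 genes each). The lowest adjusted limma p of a member was 0.126, for Pi16 with estimated sample weights. The median of the members stayed within 0.52 to 0.75. With a filter at 2 FPKM (which drops En1, Dlk1 and Twist2), 3 of 9 members had an unadjusted limma p under 0.05. Likewise 3 had groups that do not overlap. Both counts were also 3 with median-of-ratios scaling, quantile normalization, rescaling without the mitochondrially encoded protein genes and voom with median-of-ratios library sizes. With the filter, 806 of 11838 genes were higher at an unadjusted limma p under 0.05 and 1682 separated with the treated higher. Of 16005 genes, these numbers were 438 and 886 with median-of-ratios scaling and 474 and 980 with quantile normalization. They were 420 and 743 without the mitochondrially encoded protein genes. With that voom fit they were 421 and 863 of 15709 genes. Leaving out 1 library in turn gave 2 to 6 members at an unadjusted limma p under 0.05. It gave 5 to 7 that separated the groups, with medians of 0.53 to 0.75. The count of members at that p was 2 without NC 1 or NC 3 and 3 without SFRP2-siRNA 2. Smaller groups separate more easily. Of 16005 genes, 2226 separated with the treated higher in all 6 libraries, and 2517 to 4645 with 1 left out. The 7 members came without SFRP2-siRNA 3, where 3520 genes separated. Genes higher at an unadjusted limma p under 0.05 numbered 1075 with all libraries and 460 to 1566 with 1 left out. Libraries of the same number did not deviate together in every pair (correlations of deviations -0.05, -0.15 and 0.38). With the replicate block, 6 members had an unadjusted limma p under 0.05, against 1255 of 16005 genes higher at that p. 0 genes passed the adjusted threshold. As without the block, 5 members separated the groups, against 2226 genes with the treated higher, and the median was 0.62. The members with p under 0.05 then included Dpp4 (limma p 0.0147) and Crabp1 (0.0460) and not Pdgfra (0.0563).

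Differences from the fibroblast reference turned sign in 11 of 71 refits, with exact permutation p-values from 0.4 to 1, and the cause was not tested. The refits used a pseudocount of 0.1, took Pdgfra alone as the reference for the other members, or left out each library in turn. With a pseudocount of 0.1 En1 was 0.19 and Dlk1 0.29. Leaving out each library in turn gave ranges of -0.03 to 0.18 for Pdgfra (-0.00084 without NC 1, -0.028 without SFRP2-siRNA 1), -0.51 to 0.15 for Dpp4, -0.17 to 0.41 for Pi16, -0.26 to 0.031 for En1, -0.48 to 0.33 for Crabp1 (0.28 without SFRP2-siRNA 3) and -0.37 to 0.067 for Dlk1 (0.0049 without NC 1). The ranges were -0.88 to -0.28 for Twist2, -0.24 to -0.03 for Dpt and -0.11 to -0.03 for Prrx1. The thinnest member value, Twist2 in its lowest library, rested on 105 reads.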

Other observations

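Of the mural cell genes, Cspg4 was the one gene of all lists with every treated library below every NC library, at 6.31 ± 0.672 and 4.65 ± 0.333 FPKM.

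Among the fibroblast genes listed, Tagln and S100a4 were below the filter and were not tested. Tagln had 0.150 to 0.491 FPKM on 14 to 46 reads per library, and S100a4 had 0.189 to 0.638 FPKM on 5 to 16 reads. Both encode abundant proteins of contractile or activated mesenchymal cells, and both were named after their values were seen. How the authors' counting treated reads shared with overlapping genes was not tested, and these values do not show that the genes were near absent.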
